A study of Homo sapiens with 4 samples.

Results

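The collagen and laminin chains were taken from a table of raw counts as every gene line whose symbol is COL, digits, A and digits, or LAMA, LAMB or LAMC and a digit. Described here are 54 of 23340 gene lines, 43 collagen and 11 laminin chains, and 5 lines with a longer name of the same start (COL4A3BP, COL18A1-AS1, COL6A4P1, COL6A4P2 and LAMB2P1) were left out. The libraries hold poly-A+ RNA of A549, an epithelial-type cell line established from a lung carcinoma, grown in RPMI with serum. Clone 4 and clone 5 are NOCT-KO lines, each grown from a single cell after lentiviral delivery of the knockout construct, puromycin selection and limiting dilution, and WT 1 and WT 2 are WT cells. Each clone is 1 library, so a NOCT-KO clone cannot be told apart from its own founder cell, and whether the WT cells went through the same steps is not given by the labels or the methods. NOCT encodes nocturnin, a phosphatase of NADP(H), and its mRNA (listed as CCRN4L) stood at 29.3 CPM in clone 4 and 15.6 CPM in clone 5, against 20.8 CPM in WT 1 and 20.1 CPM in WT 2. CPM are counts relative to the size of the library, here after scaling by TMM, edgeR's normalization. The mRNA level therefore did not separate NOCT-KO from WT. By the study's methods, the clones were genotyped and their transcripts were checked for the mutation, and neither was read here.

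Collagens are secreted proteins whose alpha chains wind into a helix, either as copies of one chain or as a mixture, so that the make-up of the molecule depends on which chains a cell transcribes. Fibrillar collagens such as types I, III and V build the fibres of connective tissue, type IV collagens form the network of the basement membrane, and other types bind to fibrils, anchor epithelia or span the cell membrane. Laminins join an alpha, a beta and a gamma chain into a cross-shaped molecule that assembles into the sheet on which lung epithelium rests, and cells hold on to both families through integrins and other receptors.

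Of the 54 chains, 23 had at least 50 counts in some library (16 collagen and 7 laminin chains), 17 stayed below that and 14 had 0 counts in every library. Just inside the minimum were COL4A6 with 52 counts and COL13A1 with 56 counts in their highest library, and just outside were COL24A1 with 34 and COL15A1 with 22. The silent lines were COL2A1, COL10A1, COL11A2, COL19A1, COL20A1, COL22A1, COL23A1, COL6A5, COL6A6, COL8A1, COL9A1, COL9A3, LAMA1 and LAMA4, for which a floor of 3 counts allows up to 0.0832 CPM in clone 4, 0.0721 CPM in clone 5, 0.0711 CPM in WT 1 and 0.0722 CPM in WT 2. Nearly all counts were even, as given below, so these limits are too low if the counts are not independent fragments. Several usual partners of transcribed chains were near silence. COL1A2, the second chain of type I collagen, had 2 counts in clone 4 and 0 in the other libraries, and COL6A3, the large chain of type VI collagen, had 6 counts in clone 5, 2 in WT 1 and 0 elsewhere. COL4A3 and COL4A4, which join COL4A5 in another type IV network, were also below the minimum, as was COL17A1, the transmembrane collagen of hemidesmosomes.

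Depth was 36873556 counts in clone 4 and 41963070 in clone 5, against 41520262 in WT 1 and 40938066 in WT 2, and between 99.1% and 99.2% of the nonzero counts were even numbers. The WT pair was the closer one: over the 10049 genes that averaged 5 CPM or more, the SD of the log2 ratio was 0.53 between clone 4 and clone 5 and 0.18 between the WT libraries. Markers of simple epithelium summed to 2590 CPM in clone 4 and 1500 CPM in clone 5, against 1670 CPM in WT 1 and 1860 CPM in WT 2, nearly all of it KRT8 and KRT18, while KRT19 was listed at 0 in every library and EPCAM stayed under 0.2 CPM. Of 6 endothelial markers 5 were at 0 in every library. Leukocyte markers summed to 2.11 CPM in clone 4 and 3.03 CPM in clone 5, against 2.33 CPM in WT 1 and 2.5 CPM in WT 2, most of it ITGAM, and 3 of the 6, among them PTPRC, were at 0 in every library. Fibroblast markers summed to 10.2 CPM in clone 4 and 18.1 CPM in clone 5, against 34.0 CPM in WT 1 and 28.7 CPM in WT 2. Most of that sum was LUM, and DCN, THY1, FAP and DPT (4 of the 9) were at 0 in every library. In bulk RNA, fewer cells that make a chain and less of its RNA per cell cannot be told apart.

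Some chains lie in pairs whose starts face away from each other, and their promoter windows (250 bases before to 50 bases after the start, from RefSeq on GRCh38.p14) are shown because both chains of a pair were measured here. Of the 23 described chains 18 had a window, and COL3A1, COL5A2, COL1A1, COL6A1 and LAMC3 had none. The COL4A2 window, chr13:110307034-110307333 on the plus strand, has in capitals the 126 bases between its start and the start of COL4A1 on the other strand.
COL4A2: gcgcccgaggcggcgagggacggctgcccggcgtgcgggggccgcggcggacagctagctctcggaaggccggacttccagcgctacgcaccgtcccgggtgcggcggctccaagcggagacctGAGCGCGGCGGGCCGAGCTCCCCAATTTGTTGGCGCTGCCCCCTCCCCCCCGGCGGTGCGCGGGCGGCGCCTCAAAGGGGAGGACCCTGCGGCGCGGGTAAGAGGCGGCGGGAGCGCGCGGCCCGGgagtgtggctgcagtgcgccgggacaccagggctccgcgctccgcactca
The starts are 127 bases apart, so that 226 of the 300 bases of each window are the same DNA read on opposite strands. In the COL4A5 window, chrX:108439588-108439887 on the plus strand, the capitals are the 121 bases shared with a window of COL4A6, whose start lies 380 bases away.
COL4A5: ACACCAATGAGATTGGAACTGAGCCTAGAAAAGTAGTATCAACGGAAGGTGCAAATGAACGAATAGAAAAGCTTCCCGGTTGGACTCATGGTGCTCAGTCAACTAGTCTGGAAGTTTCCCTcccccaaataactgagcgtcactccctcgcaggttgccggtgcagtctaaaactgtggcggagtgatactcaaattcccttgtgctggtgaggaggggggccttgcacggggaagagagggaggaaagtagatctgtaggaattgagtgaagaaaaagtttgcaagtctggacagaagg
LAMA3 and LAMB3 encode chains of the same epithelial laminin, and theirs were the windows, 2 of 23, with the letters TGACTCA or TGAGTCA, which the AP-1 factors recognise. The letters are in capitals in the LAMA3 window, chr18:23872770-23873069 on the plus strand, and in 1 of the 3 LAMB3 windows, chr1:209651325-209651624 on the minus strand. The other LAMB3 windows hold no match.
LAMA3: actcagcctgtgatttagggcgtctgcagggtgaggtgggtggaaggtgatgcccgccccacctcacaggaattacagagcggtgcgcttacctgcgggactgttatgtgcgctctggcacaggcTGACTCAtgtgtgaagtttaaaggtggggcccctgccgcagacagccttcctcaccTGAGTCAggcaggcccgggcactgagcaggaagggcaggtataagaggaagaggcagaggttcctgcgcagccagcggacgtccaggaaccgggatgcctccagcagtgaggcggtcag
LAMB3: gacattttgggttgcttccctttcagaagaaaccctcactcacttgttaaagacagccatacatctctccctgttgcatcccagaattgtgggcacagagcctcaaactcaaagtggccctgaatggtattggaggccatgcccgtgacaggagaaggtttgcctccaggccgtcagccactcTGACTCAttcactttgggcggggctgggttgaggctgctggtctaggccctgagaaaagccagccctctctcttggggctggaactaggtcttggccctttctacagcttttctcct
Those letters, on either strand, stood in 4.95% of all 35116 windows. The GC box (GGGCGG or CCGCCC) stood in 20 of the 23 windows of the chains (16 of the 18 chains with a window) and in 45% of all windows. TATAAA on either strand stood in 4 of 23 against 11.5%, and CCAAT on either strand in 5 of 23 against 34.6%. The 23 windows belong to 18 chains and some of them share DNA, so the counts are not of independent windows. Matches are letters only, with no measurement of binding.

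In WT cells the laminin gamma 1 and beta 1 chains led by a wide margin. On the scale of CPM per kilobase of transcript, the mean WT level was 93.2 for LAMC1 and 83.3 for LAMB1, and the ranges of the WT libraries, 89.9 to 96.4 for LAMC1 and 79.4 to 87.3 for LAMB1, did not overlap. Next came COL3A1 at 35.8, COL4A1 at 26.2, COL4A2 at 16.0 and COL7A1 at 15.9. LAMA5 followed at 12.3, then COL5A2 at 11.2 and COL12A1 at 5.97. The neighbours COL4A2 and COL7A1 overlapped in their WT libraries. Low chains included COL1A1 at 2.53, LAMB3 at 1.81, COL16A1 at 0.697 and LAMA3 at 0.476, the last divided by its long transcript of 10.651 kb. COL4A6 was the lowest described chain, at 0.0681.

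**Figure D1:**
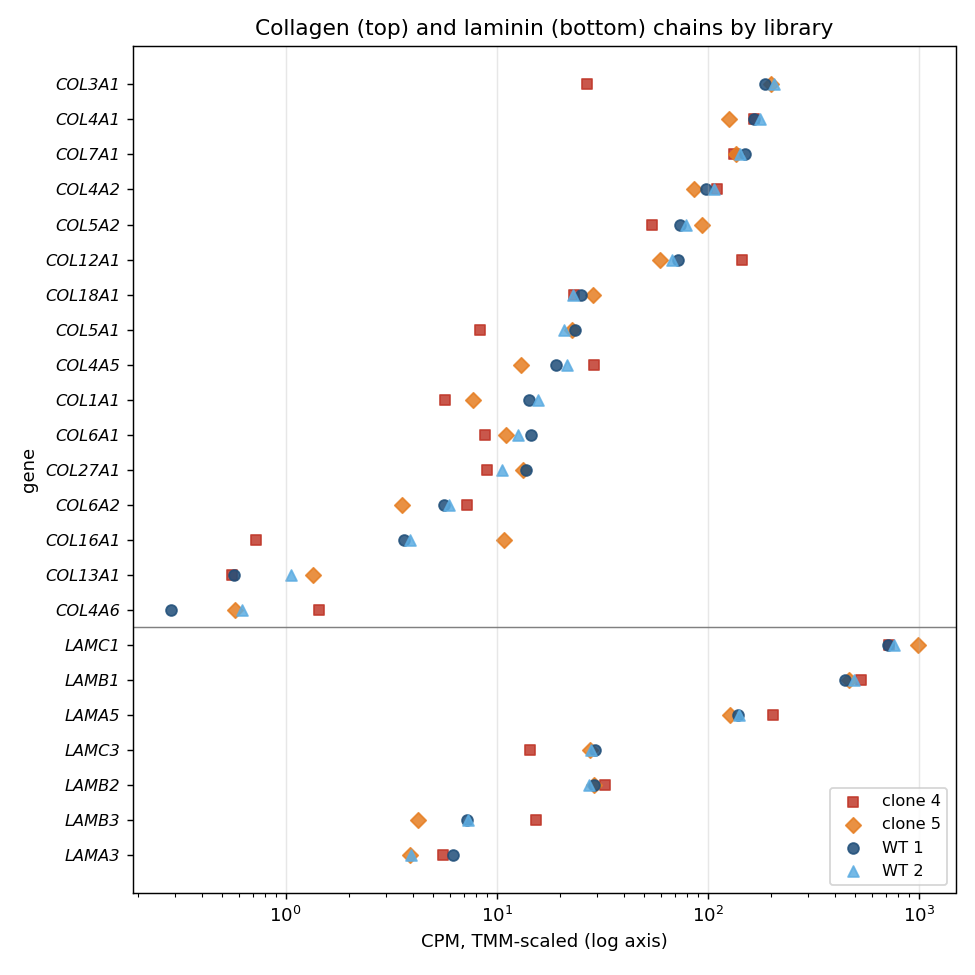
Level of each described chain (16 collagen chains above the line, 7 laminin chains below it) in TMM-scaled CPM on a log axis, 1 point per library for clone 4, clone 5, WT 1 and WT 2. Clone 4 stands far to the left for COL3A1 (26.7 CPM against 187 and 206 CPM in the WT libraries), and the WT libraries stand between the clones for COL16A1 (0.721 CPM in clone 4 and 10.9 CPM in clone 5, against 3.65 and 3.90 CPM).

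As a pair of clones against the WT pair, NOCT-KO over WT, no chain passed an adjusted p of 0.05: 0 of the 27 tested chains, where the quasi-likelihood test of edgeR, adjusted by Benjamini-Hochberg, called 0% of 13143 genes. The 27 are the 23 described chains and 4 with fewer counts that passed edgeR's filter (COL15A1, COL24A1, COL5A3 and LAMA2). COL1A1, the alpha 1 chain of type I collagen, was the 1 chain with an unadjusted p under 0.05, as were 4.21% of all genes (553). It stood at 5.71 CPM in clone 4 and 7.74 CPM in clone 5, against 14.3 CPM in WT 1 and 15.7 CPM in WT 2. Both clones were below both WT libraries, with no overlap. The mean was 6.73 ± 1.43 CPM in NOCT-KO and 15.0 ± 0.998 CPM in WT (SD, n = 2 each), on the log2 scale a change of -1.15 (standard error 0.21, unadjusted p = 0.00207, adjusted p = 0.971 from edgeR). DESeq2's Wald test called 42 genes in all, COL1A1 among them (adjusted p = 0.00547), and no other chain, and limma-voom called 0.

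In 6 of the 27 tested chains the CPM of the clones and of the WT libraries did not overlap, all 6 lower in NOCT-KO, while 17.9% of all genes were lower without overlap and 34.3% were apart in either direction. Beside COL1A1 these were COL4A1, COL5A3, COL6A1, COL7A1 and LAMC3. Some were narrow or rested on few counts. COL4A1 rounded to 166 CPM in both clone 4 and WT 1, and LAMC3 was 27.8 CPM in clone 5 and 28.1 CPM in WT 2. COL5A3 had 10 counts in clone 4 and 2 in clone 5, against 20 in WT 1 and 12 in WT 2. COL7A1, the chain of the anchoring fibrils that tie epithelium to the tissue beneath, stood at 133 CPM in clone 4 and 137 CPM in clone 5, against 151 CPM in WT 1 and 143 CPM in WT 2. This small separation came to -0.12 on the log2 scale (standard error 0.09, adjusted p = 0.971 from edgeR). The median log2 fold change was -0.04 over the 27 tested chains and 0.0 over all genes tested.

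Taken one by one, both clones differed from WT in some chains. Clone 4 over WT called 12 of the 27 tested chains, 4 higher and 8 lower, where 11.4% of all genes were called (5.41% higher and 6.02% lower). Clone 5 over WT called 5, of which 2 were higher and 3 lower, against 3.51% of all genes (1.78% higher and 1.73% lower). In clone 4 the called collagen chains were 2 higher and 7 lower of 19 tested and the laminin chains 2 higher and 1 lower of 8. In clone 5 the collagen chains were 1 higher and 3 lower, and 1 laminin chain was higher and none lower. The median log2 fold change over the 27 was -0.14 in clone 4, against -0.011 for all genes, and -0.05 in clone 5, against -0.004. These tests take their spread from the WT pair, the only replicate pair in the fit, whose libraries are not stated to be separate cultures. They assume that a lone clone library varies like that pair, and no second culture of either clone was analysed here. Both comparisons share the WT libraries. When low counts were not filtered, these 5 calls in clone 5 were lost: COL16A1 (adjusted p = 0.111 from edgeR), COL1A1 (0.179), COL4A1 (0.225), COL4A5 (0.285) and LAMC1 (0.155). In clone 4 the same setting ended the calls of COL4A5 (adjusted p = 0.166 from edgeR), COL5A2 (0.0888), COL6A1 (0.164) and COL15A1 (0.188), so that 8 chains were called in place of 12.

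**Figure D2:**
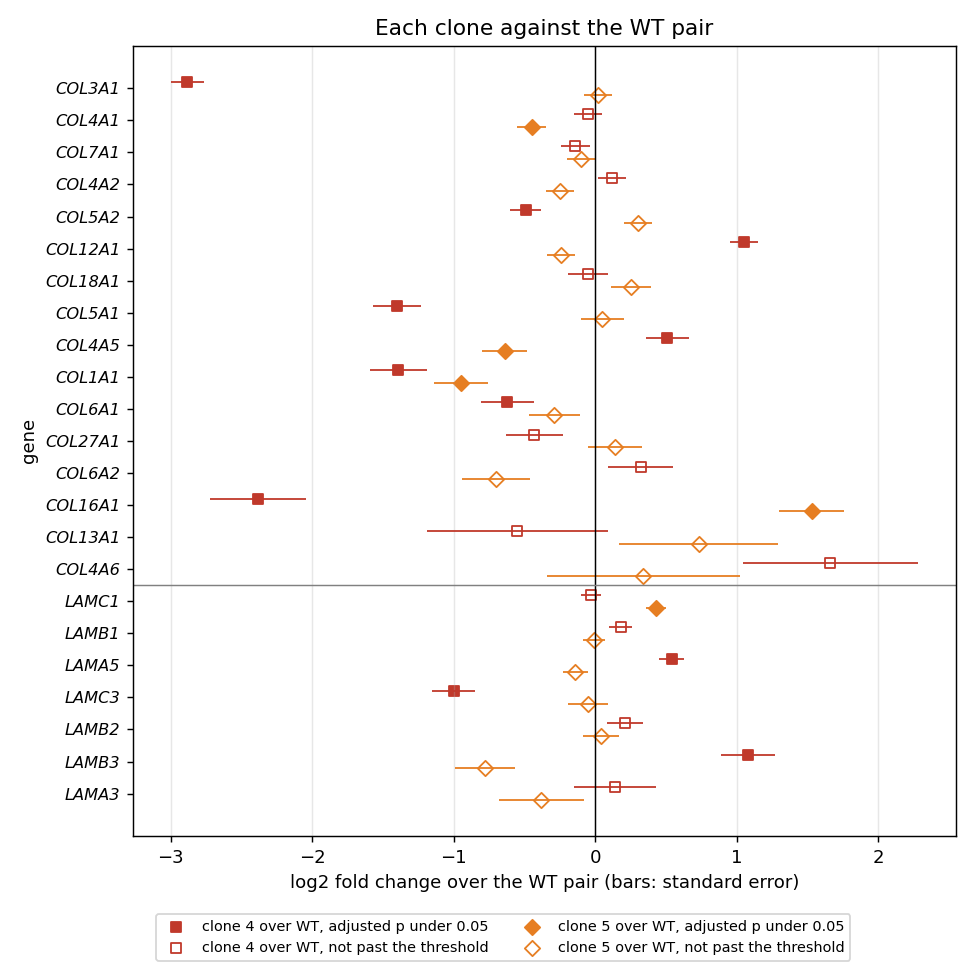
Log2 fold change of each described chain for clone 4 over WT (squares) and clone 5 over WT (diamonds), with edgeR's standard error as bars, filled where the adjusted p was under 0.05. COL3A1 lies at -2.88 in clone 4 and at 0.02 in clone 5, COL16A1 at -2.38 and at 1.53, and COL1A1 to the left of 0 in both.

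Among the fibrillar chains, COL3A1 changed most in clone 4. It encodes the single chain of type III collagen, a homotrimer of elastic tissue, from a gene on the plus strand of chromosome 2 (hg19, 189839099 to 189877472). COL3A1 stood at 26.7 CPM in clone 4 and 199 CPM in clone 5, against 187 CPM in WT 1 and 206 CPM in WT 2. Clone 4 alone was low, and clone 5 lay between the WT libraries. The fall in clone 4 was 7.35-fold (log2 fold change -2.88, standard error 0.12, adjusted p = 1.2e-09 from edgeR), and clone 5 was not called (log2 fold change 0.02, standard error 0.10, adjusted p = 0.945). The next gene along with a described chain, COL5A2 at 189896624 to 190090038 on the minus strand, encodes the alpha 2 chain of type V collagen, which starts fibrils and limits their width. Its levels were 54.3 CPM in clone 4 and 93.8 CPM in clone 5, against 74.1 CPM in WT 1 and 78.7 CPM in WT 2. The clones lay on opposite sides of WT, and only clone 4 passed the test (log2 fold change -0.49, standard error 0.11, adjusted p = 0.00733 from edgeR, and 0.30 in clone 5, adjusted p = 0.155).

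COL5A1, the alpha 1 chain of type V collagen, on chromosome 9 (137533649 to 137736689), stood at 8.38 CPM in clone 4 and 22.8 CPM in clone 5, against 23.5 CPM in WT 1 and 20.8 CPM in WT 2. It was thus low in clone 4 and within the WT range in clone 5. Clone 4 was 2.64-fold lower than WT (log2 fold change -1.40, standard error 0.17, adjusted p = 9.66e-05 from edgeR). COL1A1, on chromosome 17 (48261462 to 48278993), was low in both clones, 2.62-fold in clone 4 (log2 fold change -1.39, standard error 0.20, adjusted p = 3.57e-04 from edgeR) and 1.93-fold in clone 5 (log2 fold change -0.95, standard error 0.19, adjusted p = 0.0113). The clones themselves were not told apart for COL1A1 by this test (log2 fold change of clone 4 over clone 5 -0.44, standard error 0.23, adjusted p = 0.25 from edgeR). COL27A1, a minor fibrillar chain known from cartilage, had 9.04 CPM in clone 4 and 13.4 CPM in clone 5, against 13.8 CPM in WT 1 and 10.6 CPM in WT 2, and passed no test.

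The fibril-associated chains went opposite ways in clone 4. COL12A1, whose type XII collagen bridges fibrils, lies on chromosome 6 (75794042 to 75915983) and stood at 145 CPM in clone 4 and 59.3 CPM in clone 5, against 72.6 CPM in WT 1 and 67.5 CPM in WT 2. Clone 4 was high and clone 5 slightly below both WT libraries. The rise in clone 4 was 2.07-fold (log2 fold change 1.05, standard error 0.10, adjusted p = 6.44e-06 from edgeR), and clone 5 had a log2 fold change of -0.24 (adjusted p = 0.268). COL16A1, the chain of type XVI collagen, on chromosome 1 (32117864 to 32169920), had 0.721 CPM in clone 4 and 10.9 CPM in clone 5, against 3.65 CPM in WT 1 and 3.90 CPM in WT 2. Here the WT libraries lay between the clones. Clone 4 was 5.21-fold lower (log2 fold change -2.38, standard error 0.34, adjusted p = 3e-04 from edgeR), while clone 5 was 2.88-fold higher (log2 fold change 1.53, standard error 0.23, adjusted p = 0.00178).

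The chief type IV chains were steadier. COL4A1 and COL4A2, which make up the common network of basement membranes, lie head to head on chromosome 13 (110801310 to 110959504 and 110958159 to 111165556 of hg19) and share the promoter DNA shown above. The gene extents on hg19 (GENCODE) overlap from 110958159 to 110959504, while the RefSeq starts on GRCh38.p14 lie 127 bases apart, and whether reads were assigned by strand is not given in the sources used here. COL4A1 stood at 166 CPM in clone 4 and 126 CPM in clone 5, against 166 CPM in WT 1 and 177 CPM in WT 2. Its partner COL4A2 stood at 111 CPM in clone 4 and 86.4 CPM in clone 5, against 98.3 CPM in WT 1 and 107 CPM in WT 2. Both chains were lowest in clone 5. COL4A1 fell there (log2 fold change -0.45, standard error 0.10, adjusted p = 0.0184 from edgeR), and COL4A2 missed the threshold (log2 fold change -0.25, standard error 0.10, adjusted p = 0.236). In clone 4 the log2 fold changes were -0.05 for COL4A1 and 0.12 for COL4A2, neither past the threshold. The ratio of COL4A1 to COL4A2 per kilobase stayed in a narrow range, 1.47 in clone 4 and 1.43 in clone 5, against 1.67 in WT 1 and 1.63 in WT 2.

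COL4A5 and COL4A6 form the second head-to-head pair, on chromosome X (107683068 to 107940775 and 107398837 to 107682727), and meet in basement membranes of smooth muscle and some epithelia. COL4A5 stood at 29.1 CPM in clone 4 and 13.1 CPM in clone 5, against 19.1 CPM in WT 1 and 21.6 CPM in WT 2. It was higher than WT in clone 4 (log2 fold change 0.51, standard error 0.15, adjusted p = 0.0387 from edgeR) and lower in clone 5 (log2 fold change -0.64, standard error 0.16, adjusted p = 0.0412). Both calls were near the threshold: DESeq2 gave an adjusted p of 0.158 in clone 4 and 0.132 in clone 5. COL4A6 had 1.44 CPM in clone 4 and 0.577 CPM in clone 5, against 0.285 CPM in WT 1 and 0.625 CPM in WT 2. It too was highest in clone 4, but the difference did not pass (log2 fold change 1.66, standard error 0.62, adjusted p = 0.113 from edgeR).

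COL6A1 and COL6A2, chains of the beaded filaments of type VI collagen, lie on chromosome 21. COL6A1 stood at 8.82 CPM in clone 4 and 11.1 CPM in clone 5, against 14.5 CPM in WT 1 and 12.7 CPM in WT 2. It passed narrowly in clone 4 (log2 fold change -0.62, standard error 0.19, adjusted p = 0.047 from edgeR) and lost the call with DESeq2 (adjusted p = 0.225) and limma-voom (adjusted p = 0.0738). COL6A2 stood at 7.21 CPM in clone 4 and 3.56 CPM in clone 5, against 5.64 CPM in WT 1 and 5.92 CPM in WT 2, so that its clones lay on either side of WT and neither was called. The ratio of COL6A1 to COL6A2 per kilobase was 1.0 in clone 4 and 2.56 in clone 5, against 2.1 in WT 1 and 1.76 in WT 2. COL18A1, the source of endostatin, had 23.4 CPM in clone 4 and 28.8 CPM in clone 5, against 25.2 CPM in WT 1 and 23.1 CPM in WT 2. COL13A1, a transmembrane collagen, had 0.555 CPM in clone 4 and 1.35 CPM in clone 5, against 0.569 CPM in WT 1 and 1.06 CPM in WT 2, and neither chain was called. COL15A1, a relative of COL18A1, had 0 counts in clone 4 and 14 in clone 5, against 22 in WT 1 and 12 in WT 2. Clone 4 was called for it (adjusted p = 0.0419 from edgeR). Set at a floor of 3 counts, clone 4 would lie 4.87-fold below the WT mean of 0.405 CPM. This is not a firm bound, since nearly all counts were even and the WT mean rests on few counts. That call was lost with no filter on low counts (adjusted p = 0.188 from edgeR) and without clone 5 in the fit (0.0809).

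Of the laminin chains described here, LAMB3 separated the clones most. It encodes the beta 3 chain, which joins the alpha 3 chain of LAMA3 in the laminin that anchors epithelial cells at hemidesmosomes. LAMB3 stood at 15.4 CPM in clone 4 and 4.23 CPM in clone 5, against 7.21 CPM in WT 1 and 7.31 CPM in WT 2. The WT libraries were nearly equal and lay between the clones. It rose 2.12-fold in clone 4 (log2 fold change 1.08, standard error 0.19, adjusted p = 0.0017 from edgeR), and clone 5 missed the threshold (log2 fold change -0.78, standard error 0.21, adjusted p = 0.0642). LAMA3, the alpha 3 chain, had 5.60 CPM in clone 4 and 3.90 CPM in clone 5, against 6.21 CPM in WT 1 and 3.95 CPM in WT 2, and its WT libraries alone were about as far apart. The ratio of LAMB3 to LAMA3 per kilobase was 7.28 in clone 4 and 2.88 in clone 5, against 3.08 in WT 1 and 4.92 in WT 2. These ratios divide LAMA3 by a transcript of 10.651 kb and would be lower with a shorter one. Which LAMA3 transcript the cells made was not tested.

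LAMB3 lies on chromosome 1 from 209788215 to 209825770, in a stretch that was itself high in clone 4. Beyond 200 Mb of chromosome 1, leaving LAMB3 out, 235 tested genes had a median log2 fold change of 0.32 in clone 4 (105 called, 96 of them higher) and of -0.06 in clone 5 (7 called). The part of this regional shift in the LAMB3 value was not tested, and its log2 fold change of 1.08 was larger than the regional median. The medians around 4 other called chains were nearer 0: within 2 Mb on each side the clone 4 median was -0.03 around COL3A1 (17 genes), -0.01 around COL16A1 (36 genes), 0.02 around COL1A1 (41 genes) and -0.05 around COL12A1 (11 genes). Around COL5A1, COL5A2, COL4A5, LAMA5, LAMC3 and COL15A1, also called in clone 4, the medians ran from -0.07 (COL5A1) to 0.05 (LAMC3). Further from 0 were, among others, COL6A1 at 0.12 (25 genes), LAMC1 at -0.13 (15 genes) and LAMB1 at 0.20 (15 genes). LAMC1 and LAMB1 were not called in clone 4. For clone 5 over WT, which called LAMC1, the median was 0.05 around LAMC1 and -0.15 around LAMB1. For clone 4 over clone 5 it was -0.26 around LAMC1, 0.26 around LAMB1 and 0.44 around LAMB3 (11 genes). The part of these surroundings in the LAMC1 value was not tested.

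The chains of the widespread laminins moved less. LAMC1, the gamma 1 chain present in most laminins, on chromosome 1 (182992555 to 183114727), stood at 722 CPM in clone 4 and 995 CPM in clone 5, against 713 CPM in WT 1 and 765 CPM in WT 2. Clone 5 alone was high (log2 fold change 0.43, standard error 0.07, adjusted p = 0.00324 from edgeR), and the ratio of LAMC1 to LAMB1 per kilobase was 0.964 in clone 4 and 1.52 in clone 5, against 1.13 in WT 1 and 1.1 in WT 2. LAMB1, the beta 1 chain, had 534 CPM in clone 4 and 467 CPM in clone 5, against 449 CPM in WT 1 and 493 CPM in WT 2, and was called in neither clone. LAMA5, the alpha 5 chain of adult epithelial basement membranes, on chromosome 20 (60883011 to 60942368), stood at 204 CPM in clone 4 and 128 CPM in clone 5, against 140 CPM in WT 1 and 141 CPM in WT 2. It was high in clone 4 by 1.45-fold (log2 fold change 0.54, standard error 0.09, adjusted p = 0.00132 from edgeR). The ratio of LAMA5 to LAMC1 per kilobase was 0.196 in clone 4 and 0.0891 in clone 5, against 0.136 in WT 1 and 0.128 in WT 2. LAMC3, the gamma 3 chain, on chromosome 9 (133884561 to 133969860), stood at 14.4 CPM in clone 4 and 27.8 CPM in clone 5, against 29.4 CPM in WT 1 and 28.1 CPM in WT 2. Clone 4 was 2.0-fold lower (log2 fold change -1.0, standard error 0.15, adjusted p = 4.45e-04 from edgeR), while clone 5 lay just under the WT pair. LAMB2, the beta 2 chain of synaptic and kidney basement membranes, had 32.6 CPM in clone 4 and 29.0 CPM in clone 5, against 29.1 CPM in WT 1 and 27.4 CPM in WT 2, and was not called. LAMA5 and LAMB1 overlap the genes ADRM1 and DLD on the opposite strand, and COL18A1 overlaps SLC19A1, so some reads may be shared.

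**Figure D3:**
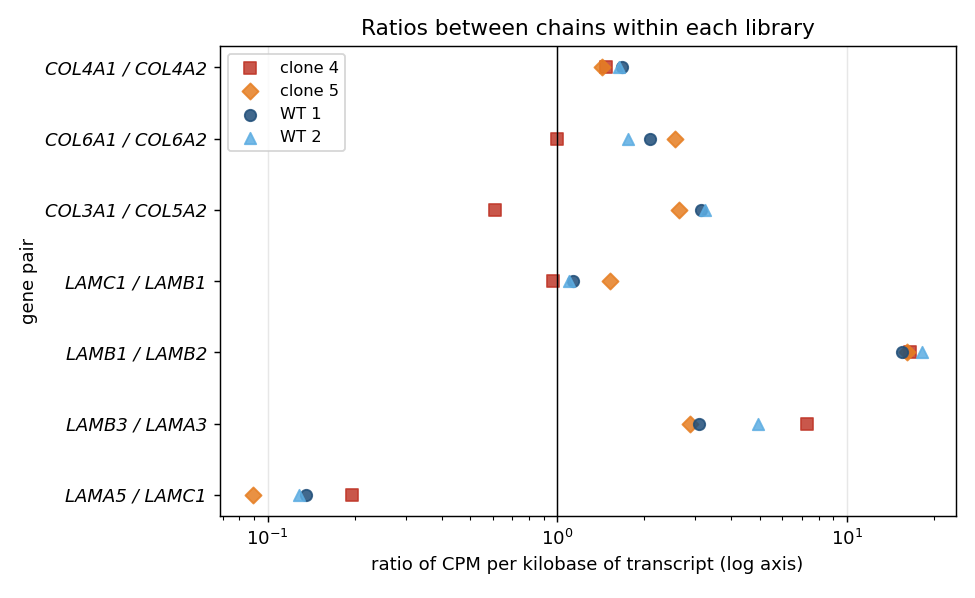
Ratio between chains of CPM per kilobase of transcript within each library, on a log axis, for clone 4, clone 5, WT 1 and WT 2, with a line at a ratio of 1. COL4A1 over COL4A2 (1.43 to 1.67) and LAMB1 over LAMB2 (15.5 to 18.2) stay together, while COL3A1 over COL5A2 is 0.611 in clone 4 and 2.64 in clone 5, against 3.14 in WT 1 and 3.25 in WT 2.

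Compared directly, clone 4 over clone 5, the clones differed in 12 of the 27 tested chains, 6 higher and 6 lower in clone 4, where edgeR called 13.1% of all genes (5.73% higher and 7.38% lower). The widest gap among these was COL16A1, 15.0-fold lower in clone 4 (log2 fold change -3.91, standard error 0.35, adjusted p = 3.56e-06 from edgeR), followed by COL3A1 at 7.46-fold lower (log2 fold change -2.90, standard error 0.13, adjusted p = 1.27e-09). On the other side LAMB3 was 3.63-fold higher in clone 4 (log2 fold change 1.86, standard error 0.24, adjusted p = 1.01e-04 from edgeR). The median over the 27 was -0.30, against -0.001 over all genes.

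Summed over the family, the collagen chains came to 731 CPM in clone 4 and 817 CPM in clone 5, against 871 CPM in WT 1 and 897 CPM in WT 2. The 11 laminin chains came to 1530 CPM in clone 4 and 1660 CPM in clone 5, against 1370 CPM in WT 1 and 1470 CPM in WT 2. The sums differed far less between libraries than COL3A1 did. COL3A1 made up 3.65% of the collagen counts in clone 4 (95% Wilson interval 3.43% to 3.88%) and 24.4% in clone 5 (23.9% to 24.8%), against 21.4% in WT 1 (21.0% to 21.9%) and 22.9% in WT 2 (22.5% to 23.4%). COL12A1 made up 19.8% in clone 4 and 7.25% in clone 5, against 8.33% in WT 1 and 7.53% in WT 2. LAMC1 made up 47.3% of the counts of these laminin chains in clone 4 (46.8% to 47.7%) and 60.1% in clone 5 (59.7% to 60.5%), against 51.9% in WT 1 (51.5% to 52.3%) and 52.1% in WT 2 (51.7% to 52.5%). The intervals cover counting error only, and since nearly all counts are even they are narrower than the number of independent fragments would give.

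**Figure D4:**
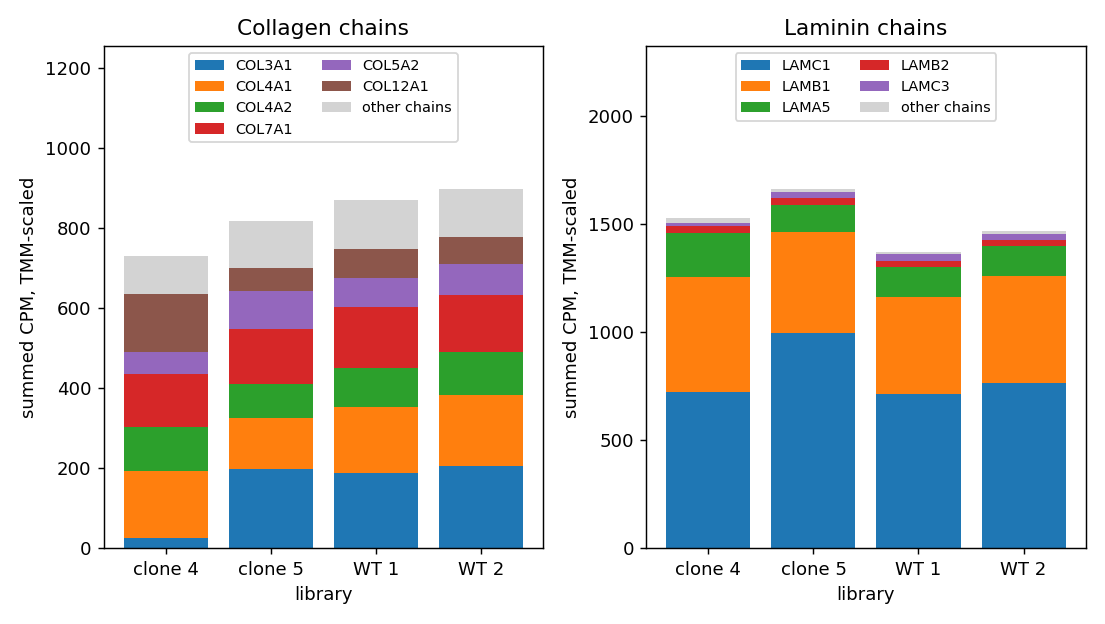
Summed TMM-scaled CPM of the 43 collagen chains (left) and the 11 laminin chains (right) in clone 4, clone 5, WT 1 and WT 2, stacked by the leading chains, with the rest in grey. The collagen sum is lowest in clone 4 at 731 CPM and highest in WT 2 at 897 CPM, with COL3A1 at 26.7 CPM of the clone 4 bar, and the laminin sum is highest in clone 5 at 1660 CPM.

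The genes that modify, export and hold these chains were read from lists of known partners. Of 17 tested enzymes and chaperones of collagen hydroxylation and folding, clone 4 had 2 higher and 2 lower and clone 5 had none called. In these lists a count is to be read against the share of all genes called, 5.41% higher and 6.02% lower in clone 4, and 1.78% higher and 1.73% lower in clone 5. PLOD2, which hydroxylates lysines for cross-links, was higher in clone 4 (log2 fold change 0.37, adjusted p = 0.00955 from edgeR). FKBP10, a chaperone of procollagen in the endoplasmic reticulum, stood at 84.9 CPM in clone 4 and 147 CPM in clone 5, against 121 CPM in WT 1 and 125 CPM in WT 2 (clone 4 log2 fold change -0.54, adjusted p = 0.00234 from edgeR). Of 12 tested export and trimming genes, clone 4 had 1 lower (FURIN, a proprotein convertase) and clone 5 had 1 higher (TLL1, a procollagen-trimming protease). Among 4 tested cross-linking genes the called one was TGM2, the tissue transglutaminase, at 399 CPM in clone 4 and 15.1 CPM in clone 5, against 32.8 CPM in WT 1 and 37.8 CPM in WT 2. It was high in clone 4 (log2 fold change 3.50, adjusted p = 2.11e-11 from edgeR) and low in clone 5 (log2 fold change -1.22, adjusted p = 4e-05). LOX and LOXL1, lysyl oxidases, were at 0 in every library, and LOXL2 had 129 CPM in clone 4 and 141 CPM in clone 5, against 110 CPM in WT 1 and 127 CPM in WT 2.

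Basement membrane partners had 3 higher and 2 lower of 9 tested in clone 4 (11.4% of all genes called) and 2 higher in clone 5 (3.51%). HSPG2, which encodes perlecan, stood at 20.9 CPM in clone 4 and 54.2 CPM in clone 5, against 28.5 CPM in WT 1 and 28.1 CPM in WT 2, on either side of WT like COL16A1. FRAS1, an extracellular protein beneath epithelia, stood at 9.21 CPM in clone 4 and 74.2 CPM in clone 5, against 75.9 CPM in WT 1 and 72.6 CPM in WT 2 (clone 4 log2 fold change -3.01, adjusted p = 2.35e-09 from edgeR). EFEMP1, a fibulin, stood at 29.0 CPM in clone 4 and 2.21 CPM in clone 5, against 2.56 CPM in WT 1 and 2.60 CPM in WT 2, high in clone 4 alone (log2 fold change 3.49, adjusted p = 2.37e-08 from edgeR).

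Of 6 tested fibrillar matrix partners, clone 4 had 5 lower and none higher, where 6.02% of all genes were lower, and clone 5 had 1 higher and 2 lower, where 3.51% were called. LUM, the fibril-binding proteoglycan lumican, stood at 7.60 CPM in clone 4 and 14.1 CPM in clone 5, against 28.5 CPM in WT 1 and 23.7 CPM in WT 2. TGFBI, a matrix protein that binds collagens and integrins, stood at 41.8 CPM in clone 4 and 48.0 CPM in clone 5, against 77.3 CPM in WT 1 and 80.6 CPM in WT 2. Like COL1A1, both were lower in both clones (LUM log2 fold change -1.78 in clone 4 and -0.88 in clone 5, adjusted p = 2.02e-05 and 0.00845 from edgeR, and TGFBI -0.92 and -0.72, adjusted p = 8.03e-05 and 0.00175). LUM also stands on the fibroblast marker list, whose sum was lower in both clones, as given above, and the part of other cells in these values was not tested. THBS1, thrombospondin 1, had 81.9 CPM in clone 4 and 177 CPM in clone 5, against 113 CPM in WT 1 and 119 CPM in WT 2, lower in clone 4 and higher in clone 5. Of 12 tested receptors, clone 4 had 3 higher and 1 lower (11.4% of all genes called) and clone 5 had 2 higher and 1 lower (3.51%). ITGA2, an integrin chain that binds collagen and laminin, rose in both (log2 fold change 0.39 in clone 4 and 0.84 in clone 5, adjusted p = 0.0208 and 1.85e-04 from edgeR). ITGA1, another collagen-binding integrin chain, fell in clone 4 (log2 fold change -1.10, adjusted p = 5.81e-04 from edgeR). Of 8 tested matrix proteases and inhibitors, MMP16 was lower in clone 4 (log2 fold change -1.88, adjusted p = 5.2e-06 from edgeR) and none was called in clone 5.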

How the data were processed

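The 4 libraries of poly-A+ RNA came from A549 cells and were read on an Illumina HiSeq instrument. The authors deposited raw counts per gene, not normalized, from reads mapped to hg19. TopHat2 and HTSeq are the tools named in the submitters' processing notes. For their versions, the annotation, the library kit and the strand setting, nothing was given in the sources used here. Of 23368 lines, 28 carried a date in place of a symbol (0.274% of counts) and were left out. The 4 library columns were all used.

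Counts were tested in R 4.3.3 with edgeR 4.0.16 (filter with a minimum count of 10 and total of 15, TMM, quasi-likelihood test, Benjamini-Hochberg at 0.05 over 13143 genes). NOCT-KO over WT used 2 groups (2 residual degrees of freedom, biological coefficient of variation 19.7%), and comparisons by clone 3 groups (1 degree, 8.33%). Alternatives used limma 3.58.1, DESeq2 1.42.0, DESeq2 size factors, no filter, halved counts and each library left out. Scripts were tested on simulated data. Standard errors are the log2 fold change over the root of F. Levels per kilobase used GENCODE transcripts lifted to hg19, matched by symbol (19556 as given, 1894 by an older symbol, 1890 not matched). Promoter windows came from RefSeq on GRCh38.p14, and no coordinates were converted. The starts of the windows, that of LAMA3 among them, were therefore not matched to the transcripts used for lengths. Chains with at least 50 counts in any library were named, with full statistics for those called and their partners. Partner lists give at most 4 called genes per list and clone, of which the text names some, picked after their values were seen. A chain and a marker gene are not reported here. The chains and lists were chosen with earlier results of these data known. Each total rests on 36873556 to 41963070 counts, and p-values measure the spread between these libraries, which may be technical. Summaries and figures were made with numpy 2.4.6, pandas 2.3.3 and matplotlib 3.10.9 under Python 3.11.15.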

Additional observations from a re-analysis of the deposited data

Results flagged for a closer look

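The clones carry the same label and were compared with the same WT pair, yet edgeR's test of clone 4 over clone 5 (Benjamini-Hochberg adjusted p under 0.05) separated 12 chains, which is why these are listed for a closer look. Lower in clone 4 were COL16A1 (log2 fold change -3.91), COL3A1 (-2.9), COL5A1 (-1.45), LAMC3 (-0.95), COL5A2 (-0.79) and LAMC1 (-0.46). Higher in clone 4 were LAMB3 (1.86), COL12A1 (1.29), COL4A5 (1.15), COL6A2 (1.02), LAMA5 (0.68) and COL4A1 (0.4). Each clone is 1 library, so a difference between clonal lines and a difference between cultures or libraries cannot be told apart. COL6A2 lost the call with DESeq2 (adjusted p = 0.178). With no filter on low counts edgeR no longer called COL6A2 (adjusted p = 0.0919), COL4A1 (0.127) and LAMC1 (0.0569).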

How the results depend on the processing

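The comparison of both clones with WT depended on each clone. The count of chains called was 1 with DESeq2 (0 with edgeR), and with 1 library left out it ran from 0 to 9, with 9 without clone 5 and 4 without clone 4. For all genes it was 42 with DESeq2 and ran from 0 to 1184 with 1 library left out (1184 without clone 5, 363 without clone 4). The counts without clone 4 or without clone 5 set 1 clone against the WT pair. The spread between the clones is not in those tests, so they do not repeat the pooled comparison. In 16 of the 23 described chains the sign of NOCT-KO over WT (log2) turned with 1 library left out. Without clone 4 and without clone 5 the values were -0.24 and 1.06 for COL12A1, 0.73 and -0.54 for COL13A1, 1.53 and -2.38 for COL16A1, 0.25 and -0.04 for COL18A1, 0.14 and -0.42 for COL27A1, 0.02 and -2.87 for COL3A1, -0.25 and 0.12 for COL4A2, -0.64 and 0.52 for COL4A5, 0.05 and -1.39 for COL5A1, 0.30 and -0.48 for COL5A2, -0.70 and 0.33 for COL6A2, -0.38 and 0.15 for LAMA3, -0.14 and 0.55 for LAMA5, -0.01 and 0.19 for LAMB1, -0.78 and 1.09 for LAMB3, and 0.43 and -0.02 for LAMC1. Without WT 1 and without WT 2 they were -0.15 and 0.74 for COL13A1 and 0.27 and -0.39 for LAMA3. COL27A1 was 0.08 and COL4A5 -0.04 without WT 1, and COL4A2 was 0.01 and COL5A2 0.00 without WT 2. Of the tested chains with fewer counts, COL24A1 (-0.02) was 0.77 without clone 4 and 0.28 without WT 1, and LAMA2 (0.22) was -0.51 without clone 5 and -0.06 without WT 1. With limma-voom COL16A1 (-0.30) and COL4A5 (-0.08) turned negative. None of these was called with edgeR over all 4 libraries, and the cause was not tested.

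By clone, DESeq2 called 955 genes in clone 4 and 294 in clone 5 over WT and 1139 between clones, and with no filter edgeR called 366, 29 and 496, against 1502, 461 and 1723. With no filter edgeR called 0 chains in clone 5, against 5 with it, and DESeq2 and limma-voom called 4 each. With no filter COL5A2 in clone 4 had an adjusted p of 0.0888. Summed collagen CPM in clone 4 over WT was -0.27 (log2), -0.33 on library totals and -0.41 per kilobase, and the laminin sum was 0.11, and 0.05 on totals. In clone 5 the collagen sum was -0.11, and -0.15 on totals. With a minimum of 100 counts, or 50 after halving, 21 chains were described in place of 23. No paired analysis was possible because the labels number the WT libraries 1 and 2 and the clones 4 and 5. Leaving out a WT library in the fits by clone left no residual degree of freedom, so those are values with no test.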
